A study of Mus musculus with 4 samples.

Results

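The Siglec genes encode sialic acid-binding immunoglobulin-like lectins, cell surface receptors that read the sialic acid caps of glycans on the same or neighbouring cells. Genes were taken as members where the gene symbol in the count table was Siglecf, Siglec1, Siglece, Siglecg, Siglech, Cd33 or Cd22. All 7 were found among the 54532 genes of the table, and all 7 passed the filter on low counts that left 14256 genes for testing. The data are bulk RNA-seq of alveolar macrophages (AMs), which live in the airspaces of the lung, from lungs of female WT mice, which were of BALB/c background according to the methods of the study. The Control group held 2 libraries from mice that received no tumor. The Tumor group held 2 libraries from mice that had carried 4T1 cells, a mouse mammary carcinoma line injected into the mammary fat pad, for 2 weeks. The labels name no deleted gene and no drug for either group. The labels do not say whether the libraries of a group came from separate mice or from pools, so p-values measure only the spread between these libraries, which may be technical.

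Most Siglecs recruit the phosphatases SHP-1 and SHP-2 through tyrosine motifs in their tails (ITIMs) and dampen activating signals. Siglec1 (sialoadhesin) lacks such a motif and serves adhesion and uptake of sialylated particles, whereas Siglech signals through the adaptor DAP12. On mouse lung cells, SiglecF marks AMs and eosinophils, Siglec-E is found on neutrophils and other myeloid cells, Siglec-G and CD22 are best known from B cells, and Siglec-H marks plasmacytoid dendritic cells.

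Of the 7 members, 3 were higher in Tumor (Siglecg, Siglece and Cd33), 3 were lower (Siglec1, Cd22 and Siglecf) and Siglech did not pass the test, with the directions of Siglecf and Cd22 turning under scaling on AM markers. The threshold was a Benjamini-Hochberg adjusted p under 0.05 in the quasi-likelihood test of edgeR. Of all genes tested, 53.8% passed this threshold, 29.0% as higher and 24.8% as lower in Tumor, so a call by itself sets no member apart. The CPM values of the 2 groups did not overlap for any of the 7 members, as they did not for 75.1% of all genes tested. With TMM, Siglecg was the only member whose change exceeded 1 on the log2 scale, while under scaling on AM markers Siglece did so too (1.193).

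Siglecf, Siglecg, Cd33 and Siglece lie together on chromosome 7 in the coordinates of the table, which are identical with those of GENCODE M21 on build GRCm38 for all 7. Siglecf (ENSMUSG00000039013) lies at chr7:43351341-43359531 on the plus strand and Siglecg (ENSMUSG00000030468) at chr7:43408204-43418358 on the plus strand. Cd33 (ENSMUSG00000004609) follows at chr7:43524216-43544428 and Siglece (ENSMUSG00000030474) at chr7:43651070-43660161, both on the minus strand. Cd22 (ENSMUSG00000030577, chr7:30865402-30880342, minus strand) and Siglech (ENSMUSG00000051504, chr7:55768178-55778925, plus strand) lie apart from this cluster on the same chromosome. Siglec1 (ENSMUSG00000027322) is the member on another chromosome, at chr2:131069220-131086765 on the minus strand.

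With TMM, the 3 clustered members Siglecf, Siglecg and Siglece moved in different directions in Tumor. Under scaling on AM markers all 3 were higher, with log2 fold changes of 0.37, 5.444 and 1.193. The sequences before their starts are shown because of the difference seen with TMM. They come from RefSeq on build GRCm38.p6, are written 5′ to 3′ on the strand of the gene, and span chr7:43351091-43351340 for Siglecf, chr7:43407989-43408203 for Siglecg, where the print stops before the start of the gene in the count table, and chr7:43660162-43660411 for Siglece. Capitals mark GAGGAAG, the core of the PU.1 motif, which appears here as its reverse complement CTTCCTC.
Siglecf: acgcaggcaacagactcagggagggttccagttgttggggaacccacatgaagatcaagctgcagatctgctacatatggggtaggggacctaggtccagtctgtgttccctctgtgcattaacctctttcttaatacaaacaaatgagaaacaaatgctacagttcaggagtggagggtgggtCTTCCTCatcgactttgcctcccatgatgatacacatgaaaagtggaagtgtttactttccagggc
Siglecg: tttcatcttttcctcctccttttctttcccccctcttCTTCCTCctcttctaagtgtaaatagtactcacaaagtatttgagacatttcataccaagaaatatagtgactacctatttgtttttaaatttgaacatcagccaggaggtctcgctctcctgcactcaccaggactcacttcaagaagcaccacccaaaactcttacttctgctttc
Siglece: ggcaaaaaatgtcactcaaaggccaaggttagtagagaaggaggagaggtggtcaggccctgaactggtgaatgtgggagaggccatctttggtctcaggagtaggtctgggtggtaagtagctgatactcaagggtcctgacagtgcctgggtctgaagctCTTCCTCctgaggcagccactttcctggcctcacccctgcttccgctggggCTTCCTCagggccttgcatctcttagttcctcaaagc
The 250 bases before each annotated start were searched on both strands for this core and for the AHR response core GCGTG, the STAT motif TTCNNNGAA and the interferon motif, a pair of TTTC runs with any 2 bases between them. AHR was included because the study is about AHR in lung macrophages. Windows were at hand for 6 of the 7 members, 7 windows in all, with 2 for Siglecg. The PU.1 core was found in Siglece at 88 and 37 bases before the start, in Siglecf at 66 and in Cd33 at 226. In the first Siglecg window it stood at 213 before the RefSeq start at position 43408239. Of 32851 mouse promoter windows, 10.6% hold it. The RefSeq starts used for Cd33 (43533171) and Cd22 (30879028) lie inside these genes as placed above, and so do their windows. With TMM, members that were higher and a member that was lower in Tumor thus shared the PU.1 core. Under scaling on AM markers every member that held it was higher. The STAT motif was found in Siglech at 123 bases before the start, and 7.02% of all windows hold it. Neither the AHR core, present in 28.2% of all windows, nor the interferon motif, present in 2.98%, was in any of the 7 windows. No match overlapped another, and a match of letters is not evidence of binding.

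Library totals ranged from 16167147 to 19205737 counts, and the members held 0.113% to 0.116% of them in each of the 4 libraries. Counts were scaled by TMM to CPM, counts scaled to a common library total, and a level of 3 counts, taken as the floor, corresponded to 0.153 to 0.19 CPM. The AM label was checked against 12 AM markers. None of them was at the floor and their summed level was 14260 to 14380 CPM in Control and 10050 to 10220 CPM in Tumor, with Chil3 and Mrc1 the highest. With TMM, all 12 were lower in Tumor, with a median log2 fold change of -0.521, against 0.018 over all genes tested. Granulocyte markers moved in the opposite direction. All 5 eosinophil markers were higher, from a sum of 0.4801 to 0.5068 CPM in Control to 2204 to 2224 CPM in Tumor. They passed the filter only through the Tumor libraries, so their count of calls carries no weight of its own. With at least 10 counts in every library, 0 of them were called. Prg2 and Epx, which encode granule proteins of eosinophils, had 1 count each in either Control library and rose at least 8604-fold and at least 2248-fold. Each of 10 neutrophil markers was also higher, from 113.5 to 113.7 CPM to 4375 to 4392 CPM. S100a9 and Ngp were the highest, and S100a9 rose from 0.669 to 1086 CPM. With at least 10 counts in every library, 6 neutrophil markers were called. In bulk RNA, fewer AMs and less AM RNA per cell cannot be told apart, and the part of other cells in the changes of the members was not tested.

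Siglec1, the adhesion receptor, was high in Control and lower in both Tumor libraries. Control libraries 1 and 2 held 265.6 and 272.4 CPM (4978 and 4299 counts) and Tumor libraries 1 and 2 held 166.0 and 174.1 CPM (2874 and 3417 counts). The groups did not overlap, and the means were 269.0 ± 4.82 and 170.1 ± 5.79 CPM (SD, n = 2). Siglec1 fell by 0.66 ± 0.03 on the log2 scale (SE), a 1.58-fold lower level, with an adjusted p of 9.27e-16 in edgeR. It kept this direction and its call in each of the 12 alternative fits, including scaling on AM markers, where the log2 fold change was -0.125. Of the 3 members that were lower, it alone did so. Because macrophage Siglec1 is known as an interferon-induced gene, 8 interferon response genes were read beside it. Of 7 tested, 2 were higher, 5 did not pass the test and none was lower, with a median log2 fold change of 0.512, whereas 6 were called under scaling on AM markers, as were 76.5% of all genes tested, and 3 with total counts or a minimum of 10 counts per library. Irf7, the transcription factor, rose from 4.39 ± 0.696 to 19.3 ± 0.481 CPM (n = 2), and Isg15 from 2.17 ± 0.106 to 5.75 ± 0.373 CPM (n = 2). Oas1a had 0 counts in every library.

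**Figure D1:**
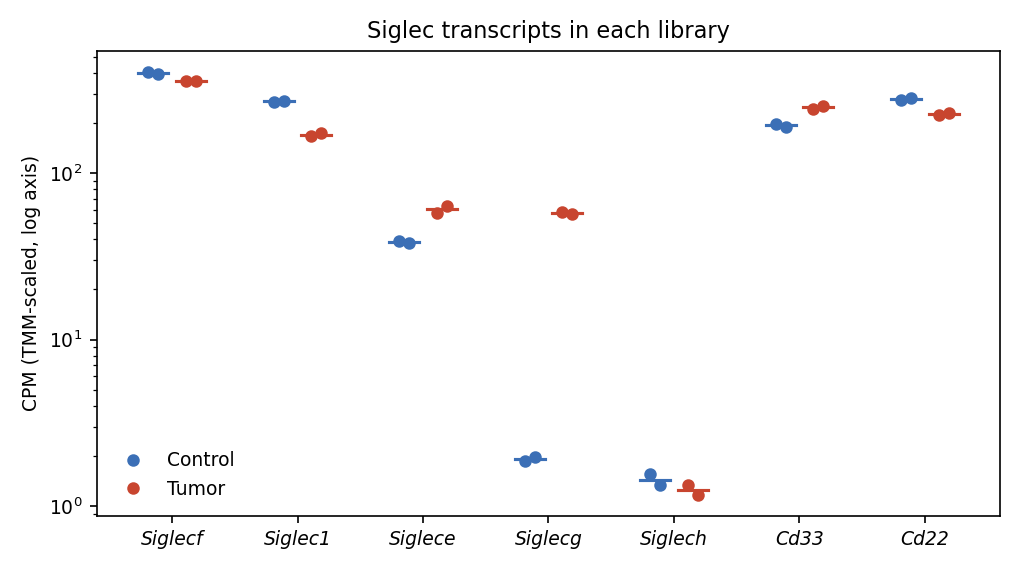
Level of each Siglec gene in the 4 libraries, as TMM-scaled CPM on a log axis. Points are libraries and lines are group means. Siglecg lies at 1.87 and 1.96 CPM in Control and at 58.5 and 56.9 CPM in Tumor, while the other 6 genes differ by less than 1.6-fold between group means.

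Siglecf encodes the ITIM receptor by which AMs are commonly recognised, and it was the most abundant member. It stood at 405.1 and 393.1 CPM in the Control libraries and at 356.1 CPM in each of the Tumor libraries (7594, 6204, 6167 and 6988 counts). Both Tumor values were below both Control values. The fall was small, 0.16 ± 0.03 on the log2 scale or 1.12-fold, with an adjusted p of 9.17e-06. Scaled on the AM markers, Siglecf was instead higher in Tumor, with a log2 fold change of 0.37, since it fell by less than the 12 markers did at the median. The study defines AMs for imaging as CD45+ CD11b- CD11c+ SiglecF+ cells. It describes the isolation of AMs for imaging and for RNA-seq together, but its RNA-seq methods say only that AMs were purified. If SiglecF was part of the gate for the RNA libraries, the level of Siglecf is no finding between the groups. A CD11b- gate would also leave out most eosinophils and neutrophils, which carry CD11b. Eosinophils also carry SiglecF, and in the Tumor libraries the eosinophil gene Prg2 stood at 1952 CPM per kb of gene length beside 127.6 for Siglecf.

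Cd22 encodes an ITIM receptor known from B cells, and its transcript was abundant in these AM libraries. The Control libraries held 275.3 and 280.4 CPM and the Tumor libraries 223.8 and 229.7 CPM (5161, 4425, 3875 and 4508 counts), without overlap. Cd22 fell by 0.29 ± 0.03 on the log2 scale, 1.22-fold, with an adjusted p of 5.23e-09. This direction also turned under scaling on AM markers, to 0.242. B cell transcripts were lower. In Control, Cd22 stood at 55.1 ± 0.707 CPM per kb, against 0.838 ± 0.0454 for Cd79a and 0.193 ± 0.0168 for Ms4a1 (n = 2), genes of the B cell receptor complex and surface, and 7.59 ± 0.752 for Ighm, the immunoglobulin heavy chain. In Tumor, Cd22 stood at 45.0 ± 0.838 and Ighm at 16.8 ± 0.591 CPM per kb (n = 2). Of 6 B cell markers tested, 5 were higher in Tumor and Pax5 was not called with TMM (median log2 fold change 1.135), with a summed level over all 8 markers of 20.79 to 22.09 CPM in Control and 43.89 to 46.48 CPM in Tumor. Ighm held most of this sum, and no B cell marker was at the floor in every library. A stretch of 50 bases in Cd22 transcripts occurred in another gene in 7.84% of cases, the highest share among the members, so part of its reads could be assigned elsewhere.

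Siglecg, the relative of CD22 that restrains B cell receptor and DAMP signalling, changed most. It was low in Control, with 35 and 31 counts (1.87 and 1.96 CPM), and reached 1013 and 1117 counts (58.5 and 56.9 CPM) in Tumor. Libraries of one group differed by less than 0.1 CPM in Control and less than 2 CPM in Tumor. The means of 1.92 ± 0.0686 and 57.7 ± 1.11 CPM (n = 2) gave a log2 fold change of 4.91 ± 0.12, a 30.1-fold higher level, with an adjusted p of 4.71e-23. Over the 12 alternative fits the log2 fold change lay between 4.861 and 5.444. The B cell markers Cd79a, Ms4a1 and Cd79b rose by 1.13, 1.32 and 1.41 on the log2 scale. Per length, Siglecg went from 0.399 ± 0.0143 to 12.01 ± 0.231 CPM per kb, while Cd79a went from 0.838 to 1.83 and Ms4a1 from 0.193 to 0.481. Ighm, the highest B cell marker, went from 7.59 ± 0.752 to 16.8 ± 0.591 CPM per kb (n = 2). Siglecg thus lay below Cd79a and Ighm in Control, and in Tumor above Cd79a and Ms4a1 but below Ighm. Basophil and mast cell markers were higher as well, 6 of 6, with Gata2 and Mcpt8 the highest of them. Their sum went from 0.2667 to 0.6336 CPM in Control to 55.05 to 62.94 CPM in Tumor. All 6 passed the filter only through the Tumor libraries, and with at least 10 counts in every library 0 were called. Stretches of 50 bases that occur in any other gene made up 4.64% of those in Siglecg (236 stretches) and 0.21% of those in Siglecf (6 stretches). Siglecf and Siglecg were the only pair of members to share any with each other, and these can number no more than the 6 of Siglecf.

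**Figure D2:**
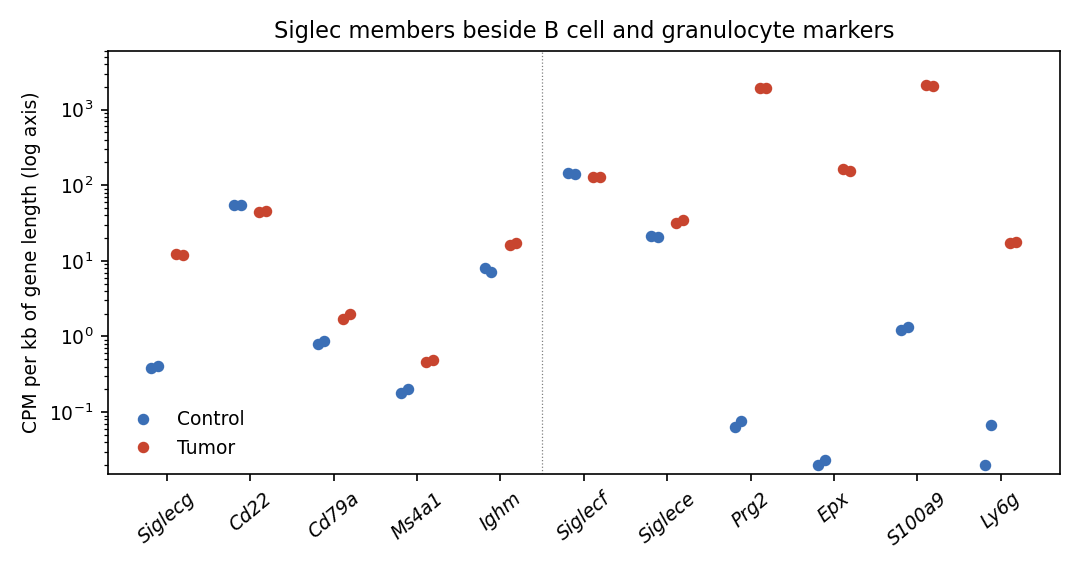
Levels of 4 Siglec genes beside 3 B cell markers (left of the dotted line) and 2 eosinophil and 2 neutrophil markers (right), in CPM per kb of gene length on a log axis, with 1 point per library. Values under 0.02, including 0 counts of Ly6g in Control 1, are drawn at 0.02. Siglecg lies above Cd79a and Ms4a1 but below Ighm in Tumor, and Cd22 lies above them in both groups.

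Siglece encodes an inhibitory receptor of neutrophils and other myeloid cells. It was measured at 38.89 and 38.08 CPM in Control and at 57.75 and 63.6 CPM in Tumor (729, 601, 1000 and 1248 counts). The groups were separate, although the Tumor libraries differed from each other by more than the Control libraries did. Siglece rose by 0.66 ± 0.07 on the log2 scale, 1.58-fold, with an adjusted p of 3.07e-09. Its call was kept in all 12 alternative fits, over which the log2 fold change ranged from 0.581 to 1.193. The neutrophil markers S100a9 and Ly6g rose over the same libraries from 1.28 to 2080 and from 0.0336 to 17.7 CPM per kb, and Siglece from 20.8 ± 0.31 to 32.8 ± 2.24 CPM per kb.

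Cd33, a myeloid Siglec, was expressed at 197.0 and 189.7 CPM in Control and 241.5 and 254.2 CPM in Tumor (3692, 2994, 4182 and 4988 counts). Every Tumor value exceeded every Control value. The rise was 0.36 ± 0.03 on the log2 scale, 1.28-fold, with an adjusted p of 7.47e-10, and the log2 fold change lay between 0.312 and 0.893 over the alternative fits. Monocyte and interstitial macrophage markers were divided. With TMM, 2 of 8 tested were higher, the monocyte genes Ly6c2 (log2 fold change 2.46 ± 0.60) and Ccr2 (1.33 ± 0.14). Ly6c2 had few counts, 2 and 7 in Control and 14 and 41 in Tumor. Lower were 5, the complement genes C1qa, C1qb and C1qc, Cx3cr1 and Cd14. The remaining 1, Vcan, was not called (list median log2 fold change -0.581). With TMM, the sum of the 8 went from 1144 to 1150 CPM in Control to 923.9 to 950.4 CPM in Tumor. Most of it was Cd14, and this sum moves with the scaling. Next came C1qa in Control (10.1 CPM) and Ccr2 in Tumor (14.9 CPM).

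Siglech, the DAP12-coupled receptor of plasmacytoid dendritic cells, was scarce in all libraries. It had 29 and 21 counts in Control and 23 and 23 in Tumor, that is 1.55, 1.33, 1.33 and 1.17 CPM. The log2 fold change of -0.21 ± 0.37 did not pass the test (adjusted p = 0.661 in edgeR), and it was smaller than its SE. The groups were separated only by a margin in the third decimal of the CPM. The plasmacytoid dendritic cell markers were low too, with a sum of 3.681 to 4.879 CPM in Control and 3.522 to 4.434 CPM in Tumor. Of 6, 3 were tested and none was called. Spib and Pacsin1 were the highest and Ly6d was at the floor in every library.

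**Figure D3:**
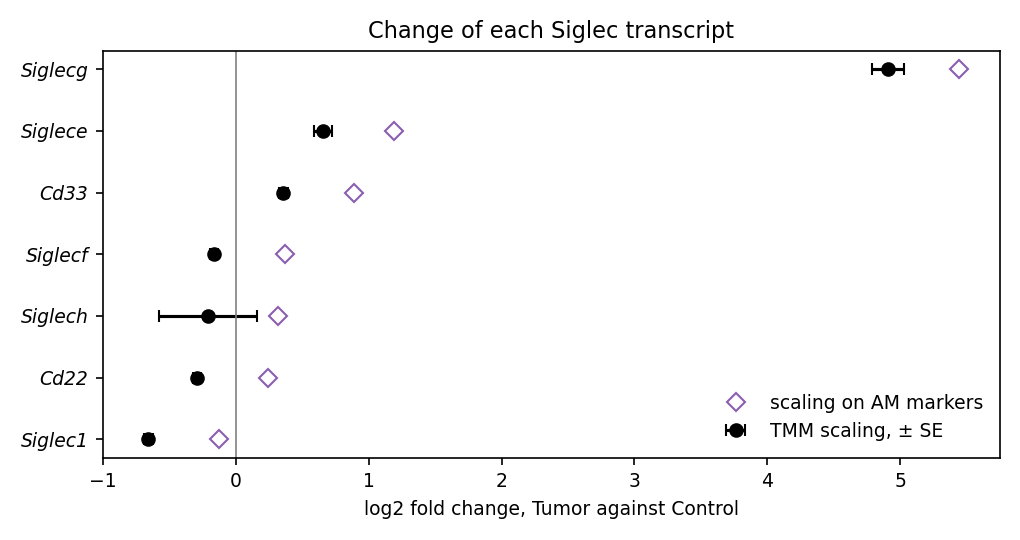
Log2 fold change of each Siglec gene, Tumor against Control. Filled points with bars are edgeR estimates with TMM scaling ± SE, and open diamonds are the same genes scaled on the 12 AM markers. Siglecg stands at 4.91, and Siglecf, Cd22 and Siglech cross 0 between the scalings while Siglec1 stays below 0.

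Scaling bears on the directions of the small changes. With TMM the median log2 fold change of all genes tested was 0.018 and 53.9% of called genes were higher in Tumor. Scaling on the AM markers moved that median to 0.552 and the share of higher calls to 94.3%, and total counts as library sizes gave a share of 62.7%. Among the members, scaling on AM markers gave 5 called higher and 1 lower. With TMM, the members' own median log2 fold change was -0.165.

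The order of the members within a library and their shares of the family do not depend on library scaling. Per length, the members in Control ranked as Siglecf (143.1 ± 3.05 CPM per kb), Cd22 (55.1 ± 0.707), Siglec1 (37.7 ± 0.675), Cd33 (24.9 ± 0.66), Siglece (20.8 ± 0.31), Siglech (0.425 ± 0.0453) and Siglecg (0.399 ± 0.0143), each with n = 2. The last 2 of this order did not differ beyond their spread. In Tumor the order was Siglecf (127.6 ± 0.00357), Cd22 (45.0 ± 0.838), Siglece (32.8 ± 2.24), Cd33 (31.9 ± 1.16), Siglec1 (23.8 ± 0.81), Siglecg (12.01 ± 0.231) and Siglech (0.37 ± 0.0326), with Siglece and Cd33 within their spread. Siglec1 thus moved from the third place to the fifth. The sum of the members was 282.3 ± 2.67 CPM per kb in Control and 273.5 ± 4.79 in Tumor with TMM, a sum that moves with the scaling, unlike the shares. Siglecf made up 50.7% ± 0.601 of it in Control and 46.7% ± 0.815 in Tumor (n = 2). Cd22 went from 19.5% ± 0.435 to 16.4% ± 0.0189, and Siglec1 from 13.3% ± 0.365 to 8.70% ± 0.144. Shares of 3 receptors grew, with Cd33 going from 8.81% ± 0.151 to 11.7% ± 0.219, Siglece from 7.37% ± 0.0401 to 11.99% ± 0.609 and Siglecg from 0.141% ± 0.00639 to 4.39% ± 0.161. For these 6 genes the 2 groups did not overlap in share. Siglech held 0.151% ± 0.0146 in Control and 0.135% ± 0.0143 in Tumor (n = 2), with overlapping groups. With 2 against 2 libraries an exact two-sided permutation test cannot go below 0.333, so no test of the shares is given.

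**Figure D4:**
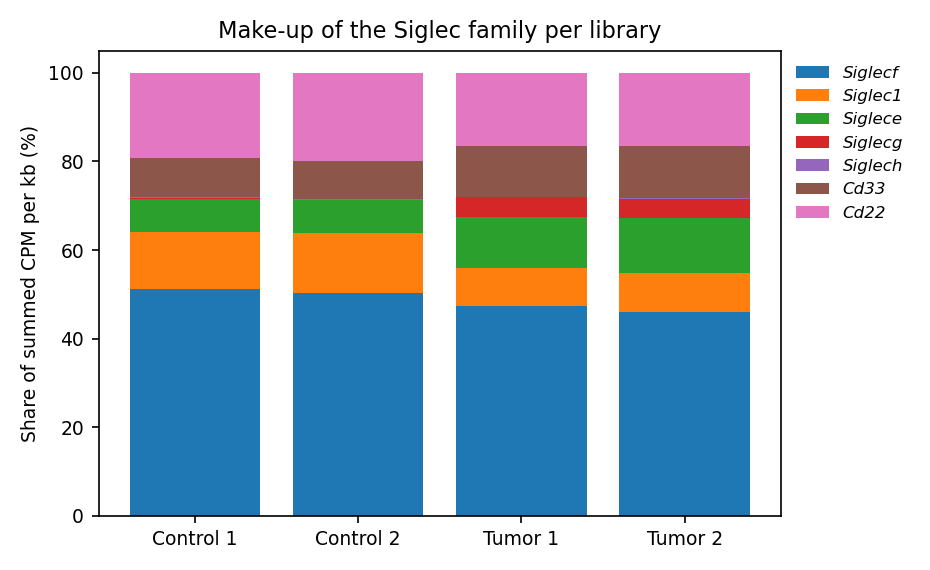
Share of each Siglec gene in the summed CPM per kb of the family, one bar per library, in percent. Siglecf is close to 50.7% in Control and 46.7% in Tumor, and Siglecg widens from 0.141% to 4.39%.

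The 2 most abundant members per length were matched to the genes with the nearest profile, by the mean absolute difference of log2 CPM over the 4 libraries. Zmiz1 (0.015) and Tcf25 (0.02) were nearest to Siglecf, and Psmd2 (0.03) and Rbm7 (0.033) to Cd22. With 4 libraries in 2 groups such likeness mainly shows a similar level and a similar small fall.

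Between the outer ends of Siglecf and Siglece lie 308821 bases of chromosome 7 with 19 further genes, of which 10 were tested. Of these, 5 were higher in Tumor, 2 were lower and 3 were not called, with a median log2 fold change of 0.298. Of all genes tested, 29.0% were higher and 24.8% were lower. Nkg7, a granule gene of cytotoxic lymphocytes that lies between Siglecg and Cd33, went from 2 counts in either Control library to 67 and 68 counts in Tumor, at least 18.2-fold higher. Between Cd33 and Siglece, the zinc finger genes Zfp719 and Zfp819 fell by 1.05 and 1.15 on the log2 scale. With TMM, members and other genes of the cluster therefore moved in both directions, as genes did over the whole table. Under scaling on AM markers Siglecf turned to 0.37, and Siglecg, Cd33 and Siglece stayed higher. Gm29439, an RNA annotated on the opposite strand within Cd22, had 0 counts in every library. Mag and Siglec15, the other Siglec genes, were read beside the members. Mag, the myelin Siglec, lies 18833 bases from Cd22 and stood at 34.3 and 35.74 CPM in Control and at 28.7 and 32.11 CPM in Tumor. Its log2 fold change of -0.20 ± 0.08 passed the test narrowly (adjusted p = 0.0405 in edgeR) and did not keep its call or direction in 7 of 12 alternative fits, with adjusted p between 0.00058 and 0.238. Leaving out Control replicate 1, Control replicate 2 or Tumor replicate 1 ended its call (0.0566, 0.136 and 0.238). Siglec15 had 0 counts in all libraries.

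Downstream of the ITIM receptors, the 10 genes for phosphatases and kinases moved in both directions with TMM. In Tumor 5 were higher, 4 were lower and Lyn, the kinase that phosphorylates ITIMs, was not called (log2 fold change -0.01 ± 0.03, adjusted p = 0.841 in edgeR), and their median was 0.033. Under scaling on AM markers, where 76.5% of all genes tested were called against 53.8% with TMM, all 10 were called, and the 4 that were lower with TMM, Ptpn11, Fgr, Fyn and Cbl, were higher. Ptpn6, which encodes SHP-1, stood at 345.5 and 337.3 CPM in Control and 355.8 and 363.2 CPM in Tumor, a log2 fold change of 0.07 ± 0.03 whose call was lost in 5 of 12 alternative fits, among them those without Control replicate 1 (adjusted p = 0.0519 in edgeR), Control replicate 2 (0.425) and Tumor replicate 2 (0.198). Ptpn11, which encodes SHP-2, fell from 132.0 ± 0.858 to 101.7 ± 9.24 CPM (n = 2). Inpp5d, the inositol phosphatase SHIP1, rose by 0.37 and Csk, which restrains SRC kinases, by 0.34 on the log2 scale. Src rose by 1.24 from a low 0.749 ± 0.073 CPM (n = 2), a call lost with DESeq2 (adjusted p = 0.0814) and without either Control replicate (0.0581 and 0.0842). Fyn fell by 0.19, Fgr by 0.11 and the ubiquitin ligase gene Cbl by 0.10 on the log2 scale. Besides turning under scaling on AM markers, these falls lost their calls with total counts, Fyn also with DESeq2 (adjusted p = 0.0801) and without Control replicate 1 (0.0517) or Tumor replicate 1 (0.0553), and Fgr and Cbl without Tumor replicate 2 (0.09 and 0.173), where their log2 fold changes were -0.079 and -0.061. The adaptor Tyrobp (DAP12), through which Siglech signals, was at 335.3 ± 13.0 CPM in Control and 338.4 ± 8.04 CPM in Tumor (n = 2) and was not called with TMM, but was called higher with total counts (log2 fold change 0.082, adjusted p = 0.0256 in edgeR) and under scaling on AM markers (0.549, adjusted p = 1.42e-15). Its relative Hcst (DAP10) rose by 1.03, and the kinase Syk by 0.07 on the log2 scale, a call lost without a filter (adjusted p = 0.0824 in edgeR) and without Control replicate 1 (0.0633), Control replicate 2 (0.0952) or Tumor replicate 2 (0.0674).

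On the ligand side, genes of sialic acid supply were counted in the same way. Of 10 genes of sialic acid synthesis, transport and turnover, 9 were tested, and under scaling on AM markers all 9 were called, where 76.5% of all genes tested were. With TMM 1 was higher, 1 was lower and 7 were not called. Their median log2 fold change with TMM was -0.06 and Nanp was at the floor. Cmah, the hydroxylase that turns N-acetyl- into N-glycolylneuraminic acid, the form that mouse CD22 prefers, had 39 and 27 counts in Control and 384 and 450 in Tumor. It rose from 1.90 ± 0.262 to 22.6 ± 0.537 CPM (n = 2), a log2 fold change of 3.56 ± 0.16 with an adjusted p of 5.13e-17 in edgeR. The sums of granulocyte, basophil and B cell markers given above rose over the same libraries. The part of those cells in the rise of Cmah was not tested. Slc17a5, the lysosomal sialic acid exporter, fell by 0.19 on the log2 scale, but turned under scaling on AM markers and lost its call with total counts (adjusted p = 0.111), with DESeq2 (0.087) and without Control replicate 1 (0.152).

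Of 20 sialyltransferases, which cap glycans with sialic acid, 13 were tested, 4 were higher and 4 were lower, with a median log2 fold change of 0.111. The α2,3-sialyltransferases moved apart. St3gal5, the GM3 ganglioside synthase, went from 5 and 5 counts in Control to 105 and 109 in Tumor (log2 fold change 4.29 ± 0.34). St3gal6 rose by 1.28 and St3gal4 by 0.72. The part of other cells in these rises was not tested. In contrast St3gal1, which caps O-glycans, fell from 225.4 ± 2.59 to 140.1 ± 12.1 CPM (n = 2), or by 0.68 on the log2 scale with TMM and by 0.15 under scaling on AM markers. St3gal3 fell by 0.47 and St6galnac6 by 0.46 with TMM, and both turned to about 0.07 under scaling on AM markers, while St6galnac6 also lost its call without Control replicate 2 (adjusted p = 0.0803 in edgeR). The sialidase gene Neu1 fell from 239.8 ± 3.33 to 222.6 ± 3.41 CPM (n = 2) with TMM, lost its call with total counts (adjusted p = 0.315 in edgeR) and was higher under scaling on AM markers, Neu3 was not called at about 1 CPM, and Neu2 and Neu4 were at the floor.

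Among 8 genes for proteins known to bear Siglec ligands, 7 were tested, of which 4 were higher, 1 was lower and 2 were not called, with a median log2 fold change of 0.066. Cd24a, whose human counterpart binds Siglec-10 and whose product is a partner of Siglec-G, stood at 269.3 and 256.5 CPM in Control and at 570.6 and 573.0 CPM in Tumor. Its rise of 1.12 ± 0.03 on the log2 scale (adjusted p = 4.70e-23 in edgeR) thus went with that of Siglecg over the same 4 libraries. Spn (CD43) rose by 0.63, Selplg (PSGL-1) by 0.40 and Ptprc (CD45), a ligand of CD22, by 0.07 on the log2 scale, the last with its call lost without a filter (adjusted p = 0.0658 in edgeR) and without Control replicate 2 (0.439). Lgals3bp fell by 0.16 with TMM but not under scaling on AM markers. The mucins were scarce: Muc1 (log2 fold change -0.57) and Muc5b (-1.07) were not called and Muc4 was not tested. Single libraries decided these values, since Muc5b was called without Tumor replicate 1 (-2.007, adjusted p = 0.0209 in edgeR) and stood at -0.471 without Tumor replicate 2, and Muc1 stood at -0.255 and -1.022 without the same replicates. Neutrophils and B cells carry much CD24, and the marker sums given above moved with Cd24a. Their part in its rise was not tested.

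**Figure D5:**
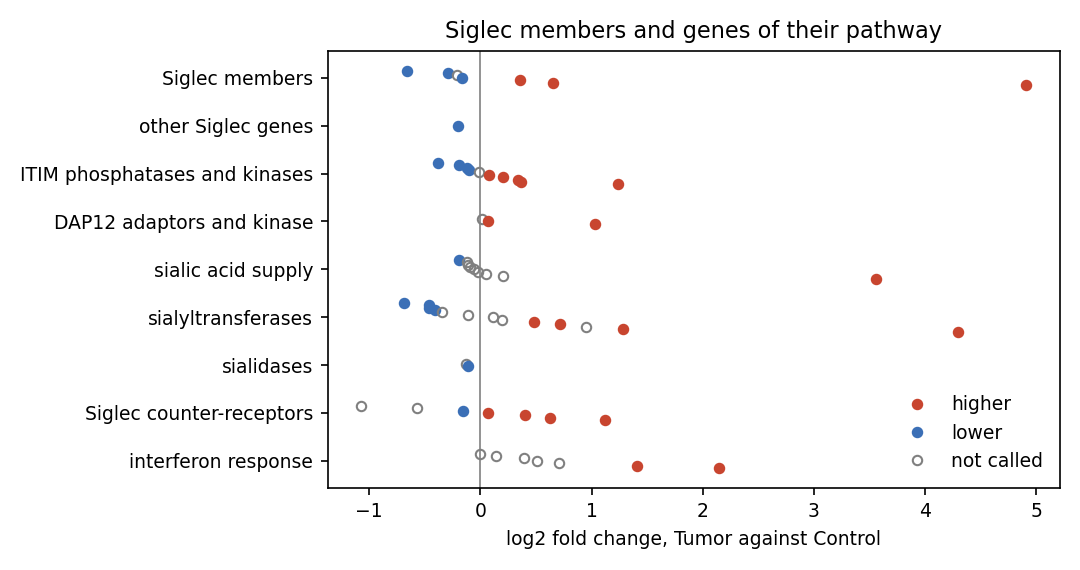
Log2 fold change of each tested gene of the Siglec family and of 8 lists of related genes, Tumor against Control with TMM scaling. Red points are higher and blue points lower at an adjusted p under 0.05, and open points were not called. Siglecg (4.91), St3gal5 (4.29) and Cmah (3.56) lie farthest to the right, and directions near 0 depend on the scaling.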

How the data were processed

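AMs were purified by the authors and their RNA, extracted with TRIzol, was made into libraries with the NEBNext Ultra RNA kit, per the labels. By the study's methods and the submitters' processing notes, paired-end reads were aligned with HISAT2 2.0.5 and counted with featureCounts. The notes also name DESeq2, without a role. The genome build, annotation, strand setting and treatment of multi-mapping reads are not given in the sources used here. The deposited values are raw counts per gene, which the authors did not normalize, with a gene length.

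The test was run with edgeR 4.0.16 under R 4.3.3 (filterByExpr at a minimum count of 10, TMM, glmQLFit and glmQLFTest with group as the only term and 2 residual degrees of freedom, Benjamini-Hochberg adjustment over 14256 genes, threshold 0.05). SE was computed from the log2 fold change and the F statistic, as their quotient after taking the root of F. CPM used TMM-scaled library sizes, and CPM per kb the deposited gene length. Genes with at most 3 counts in both Control libraries got a bound in place of a fold change. Replicates differed beyond counting noise (chi-square per gene 1.81 and 2.3). The biological coefficient of variation was 0.0303. Floors cover counting error only. On simulated counts of 54532 genes for this comparison, 96.5% of 200 changed genes tested were recovered and 1.03% of calls were false. In the data 7671 genes were called. Recovery and false calls with that many genes changed were not tested.

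The members and the 15 other gene lists were chosen with earlier results of these data known. Named were the members, each gene of the short lists, the 3 largest rises and falls of the others, the 2 highest markers of each cell type and those at the floor. Some genes that this rule names are not reported here. Cd79a, Cd79b, Pax5, Ly6g, Ly6c2, C1qa, C1qb, C1qc, Cx3cr1, Vcan, Nkg7, Zfp719, Zfp819 and Gm29439 were named after their values were seen. Alternatives were DESeq2 size factors, total counts, scaling on AM markers, no filter, at least 10 counts in every library, DESeq2 1.42.0, limma-voom (limma 3.58.1), a replicate block, leaving out each library, an adjusted p under 0.01, a minimum log2 fold change of 1 and the longest transcript as gene length.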

Additional observations from a re-analysis of the deposited data

How the results depend on the processing

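Siglecg, Siglece, Cd33 and Siglec1 kept direction and call in all 12 alternative fits. Under scaling on AM markers 5 members were called higher and 1 lower, and these log2 fold changes reversed: Siglecf to 0.37, Siglech to 0.321, Cd22 to 0.242, Mag to 0.335, Ptpn11 to 0.155, Lyn to 0.527, Fgr to 0.42, Fyn to 0.345, Cbl to 0.435, Neu1 to 0.428, Neu3 to 0.406, Lgals3bp to 0.378, Slc17a5 to 0.342, St3gal3 to 0.069 and St6galnac6 to 0.071. That scaling sets the median AM marker to no change by construction. Lyn became 0.059 with total counts and 0.018 with a minimum of 10 counts per library, and Tyrobp -0.002 without a filter. Without 1 Control replicate, Tyrobp ranged from -0.035 to 0.033 and Neu3 from -0.469 to 0.352 (neither called). The lone library is then assumed to vary like the others. A log2 fold change of at least 1 left 1 member called, by construction. With the longest transcript as length, Control levels were 153.1 CPM per kb for Siglecf, 42.12 for Siglec1, 0.4801 for Siglecg, 0.6254 for Siglech, 33.75 for Cd33 and 69.93 for Cd22, since that length is shorter. Genes called in the related lists numbered 30 with TMM, where 53.8% of all genes tested were called. Over the alternatives they numbered 24 to 43. The 43 came from scaling on AM markers, where 76.5% of all genes tested were called.

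Replicate numbers were shared between groups, but same-numbered libraries did not deviate together (correlation over genes -0.00278). The labels state no pairing, and with 2 libraries a group this correlation cannot exclude one. The replicate block left 6 members called and took the calls over all genes from 7671 to 7446, with a log2 fold change of 4.912 for Siglecg. Depth limits Siglech, Neu3 and the mucins, which rest on fewer than 40 counts a library, and 2 libraries a group limit every estimate of spread.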
